A study of Mus musculus with 7 samples.

Results

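B cell and plasma cell identity factors are the transcription factors that set up and hold the mature B cell program or replace it with the program of antibody secretion. The set described here holds 10 genes, Prdm1, Irf4, Irf8, Pax5, Ebf1, Spib, Spi1, Ikzf1, Ikzf3 and Zbtb20. They were chosen by name and found by Ensembl ID among the 48795 genes of the deposited table of TPM values (transcript abundance corrected for gene length, each library brought to the same sum). The table holds 7 bulk RNA-seq libraries of cells sorted from spleen, 3 of memory B cells (MBCs) and 4 of plasma cells (PCs). All came from female wild-type C57BL/6 mice aged 8 to 12 weeks, analyzed 10 days after an intravenous injection of sheep red blood cells, an antigen that evokes a T cell-dependent response, and no unimmunized or mutant mice entered the comparison. B cells were enriched with magnetic beads against CD43, a surface protein that PCs commonly carry. MBCs were then sorted as B220+ CD138- IgD- CD38+ CD273+ cells and PCs as B220lo CD138+ IgD- cells, and cDNA was prepared with a Nugen kit. The labels do not say how many mice each library pooled or whether libraries of a group came from separate mice, so p-values measure only the spread between these libraries, which may be technical.

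In mature B cells, Pax5 and Ebf1 keep B-lineage genes active and genes of other lineages silent, the ETS factors PU.1 (gene Spi1) and Spi-B bind DNA alone or with IRF4 or IRF8, and the zinc finger factors Ikaros (gene Ikzf1) and Aiolos (gene Ikzf3) set the response to antigen receptor signals. Differentiation into a PC requires Blimp-1 (gene Prdm1), a repressor of the B cell program that also switches on secretory genes, and IRF4, which acts in germinal center and activated B cells at low amounts and in PCs at high amounts. Blimp-1 silences Pax5 and Pax5 holds Prdm1 down, and the spleen is a site where both cell types form after immunization.

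Promoter sequence is shown for the pair of PC factors, Prdm1 and Irf4, and for Pax5 and Spib, B cell factors that fell in PCs. RefSeq start sites on GRCm38.p6 gave windows for 8 of the 10 genes, 11 windows in all, since some genes have more than 1 listed start. Spi1 and Ikzf3 had no window. Each sequence below runs 5′ to 3′ on the strand of the gene, from 200 bases before the start to 10 bases after it, and capitals mark matches to the Blimp-1 core GAAAGT, the interferon response element (GAAA, any pair of bases, GAAA), the ETS-IRF composite (GGAA, any pair of bases, GAAA), the EBF1 palindrome CCCNNGGG or the Ikaros core TGGGAA, on either strand.
Prdm1, chr10:44458739-44458948, minus strand: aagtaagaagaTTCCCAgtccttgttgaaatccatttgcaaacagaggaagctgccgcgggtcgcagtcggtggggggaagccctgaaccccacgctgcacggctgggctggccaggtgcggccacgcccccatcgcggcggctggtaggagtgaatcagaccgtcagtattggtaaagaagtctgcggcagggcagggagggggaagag
Irf4, chr13:30749033-30749242, plus strand: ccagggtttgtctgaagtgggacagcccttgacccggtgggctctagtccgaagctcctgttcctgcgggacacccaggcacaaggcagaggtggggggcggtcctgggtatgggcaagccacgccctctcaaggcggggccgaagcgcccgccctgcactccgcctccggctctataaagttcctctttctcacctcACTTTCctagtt
Pax5, chr4:44710685-44710894, minus strand: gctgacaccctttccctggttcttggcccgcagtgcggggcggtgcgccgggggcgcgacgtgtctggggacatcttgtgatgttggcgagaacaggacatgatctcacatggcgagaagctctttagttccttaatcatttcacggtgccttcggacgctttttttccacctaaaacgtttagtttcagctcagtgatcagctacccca
Spib, chr7:44532062-44532271, minus strand: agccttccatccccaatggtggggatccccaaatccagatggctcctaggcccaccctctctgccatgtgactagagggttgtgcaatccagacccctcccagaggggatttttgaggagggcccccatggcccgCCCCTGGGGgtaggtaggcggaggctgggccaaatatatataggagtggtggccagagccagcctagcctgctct

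The Prdm1 window held an Ikaros core 189 bases before the start, read as its reverse complement TTCCCA. The Irf4 window held a Blimp-1 core, as ACTTTC, 2 bases before the start. The Spib window held a pair of overlapping EBF1 palindromes, which begin 65 and 64 bases before the start, and the Pax5 window held none of the 5 motifs. The printed Pax5 sequence lies outside the GENCODE span of the gene (chr4:44524757-44710487) and covers 0 annotated exonic bases. Motifs were searched from 250 bases before to 50 bases after each start. An Ikaros core occurred in 5 of the 11 windows and in 25.6% of the 32851 windows of all genes. A Blimp-1 core occurred in 3 of the 11 and in 14.3% of all windows, an EBF1 palindrome in 3 and in 13.7%, an interferon response element in 1 and in 3.44%, and an ETS-IRF composite in 0 and in 2.72%. The ETS core GGAA, which the Ikaros core and the composite contain, was in 10 of the 11 windows and in 96.0% of all, so it is not capitalized. The Blimp-1 core shares its GAAA with the interferon response element. A match describes these letters and is not a measured binding site.

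Immunoglobulin transcripts took 49.4 to 55.9% of the TPM of PC libraries and 1.65 to 3.16% of that of MBC libraries, and mitochondrial transcripts took 8.10 to 9.80% and 19.7 to 33.5%. Libraries were therefore put on a common scale by median ratios to a geometric mean reference of the 9305 genes above 0 in all libraries, which gives scaled TPM. The PC markers Sdc1, Jchain, Xbp1 and Tnfrsf17 summed to 8449 to 14315 scaled TPM in PCs and to 118 to 173 in MBCs. The library labelled MBC replicate 3 stood apart from the others of its label in several markers. Its memory markers Cd38, Pdcd1lg2 (which encodes CD273), Nt5e and Cd80 summed to 14.9 scaled TPM, against 189 and 233 in MBC replicates 1 and 2 and 14.4 to 25.7 in PCs. Cd38 made up most of the larger sums, at 130, 186 and 6.77 in MBC replicates 1 to 3. Nt5e was not lower in replicate 3, at 5.17, 4.58 and 5.26, with 1.08 to 3.88 in PCs. The 6 germinal center markers of the library labelled MBC replicate 3 summed to 589, against 236 and 257, and its 10 cell cycle genes to 945, against 166 and 153. Over the 11573 genes tested below, its log2 values correlated with those of PC libraries at 0.70 to 0.777 (Pearson's r across genes, which are not independent). They correlated with MBC replicates 1 and 2 at 0.687 and 0.681, and those 2 with each other at 0.675. By this measure it was as near to them as they were to each other, and nearer to every PC library than to either of them. MBC replicates 1 and 2 correlated with PC libraries at 0.537 to 0.564. Genes above 0 numbered 12983, 11527 and 18061 in MBC replicates 1 to 3 and 14463 to 16768 in PCs. The part of detection in these correlations was not tested. The differences of the 10 factors and the counts of each list are therefore given with and without the library labelled MBC replicate 3. Those of the network partners, family relatives and targets described below are given so where leaving it out ends or makes a call or moves a called difference by over 1.5 times. MBC replicate 2 carried 2897 scaled TPM of erythroid markers, against at most 72.6 in any other library. The estimated yield at 1 TPM of a 1-kb transcript was 6.31 to 11.6 reads in MBC and 9.46 to 16.3 reads in PC libraries.

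All 10 genes passed the filter of 1 TPM in at least 3 libraries and were among 11573 genes tested together with limma on log2(scaled TPM + 1). Fold changes are PC against MBC on that scale, on which low genes show less than their full change. A call required an adjusted p (Benjamini-Hochberg) under 0.05 and a change of at least 1 log2 unit. Of all tested genes 8.55% were called in either direction. Of the 10 factors, 2 rose in PCs, Prdm1 and Irf4, where 6.41% of all tested genes rose. Pax5, Ebf1, Spib and Irf8 fell, 4 of the 10, where 2.14% of all tested genes fell. Spi1, Ikzf1, Ikzf3 and Zbtb20 had lower means in PCs and were not called. The median change of the 10 factors was -1.30 on the log2 scale, against 0.14 for all genes tested. In 9 of the 10 the PC values did not overlap the MBC values, 2 higher and 7 lower, against a background of 13.0% and 8.68% of tested genes in those directions. Without the library labelled MBC replicate 3, 2 factors rose and 6 fell, where 15.1% and 8.20% of tested genes did and 23.3% were called in either direction. The memory markers Cd38, Pdcd1lg2 and Cd80 also fell without it, at -3.21, -3.82 and -2.75 (limma adjusted p = 0.00152, 0.00720 and 0.0169). With all 7 libraries they were at -1.77, -2.82 and -1.64 and were not called, and Nt5e was called in neither fit. Of the 10 cell cycle genes, 0 were called with all 7 libraries and 5 rose without that library. In bulk samples, fewer cells of a type and less RNA per cell cannot be told apart, and this holds for each difference below.

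**Figure D1:**
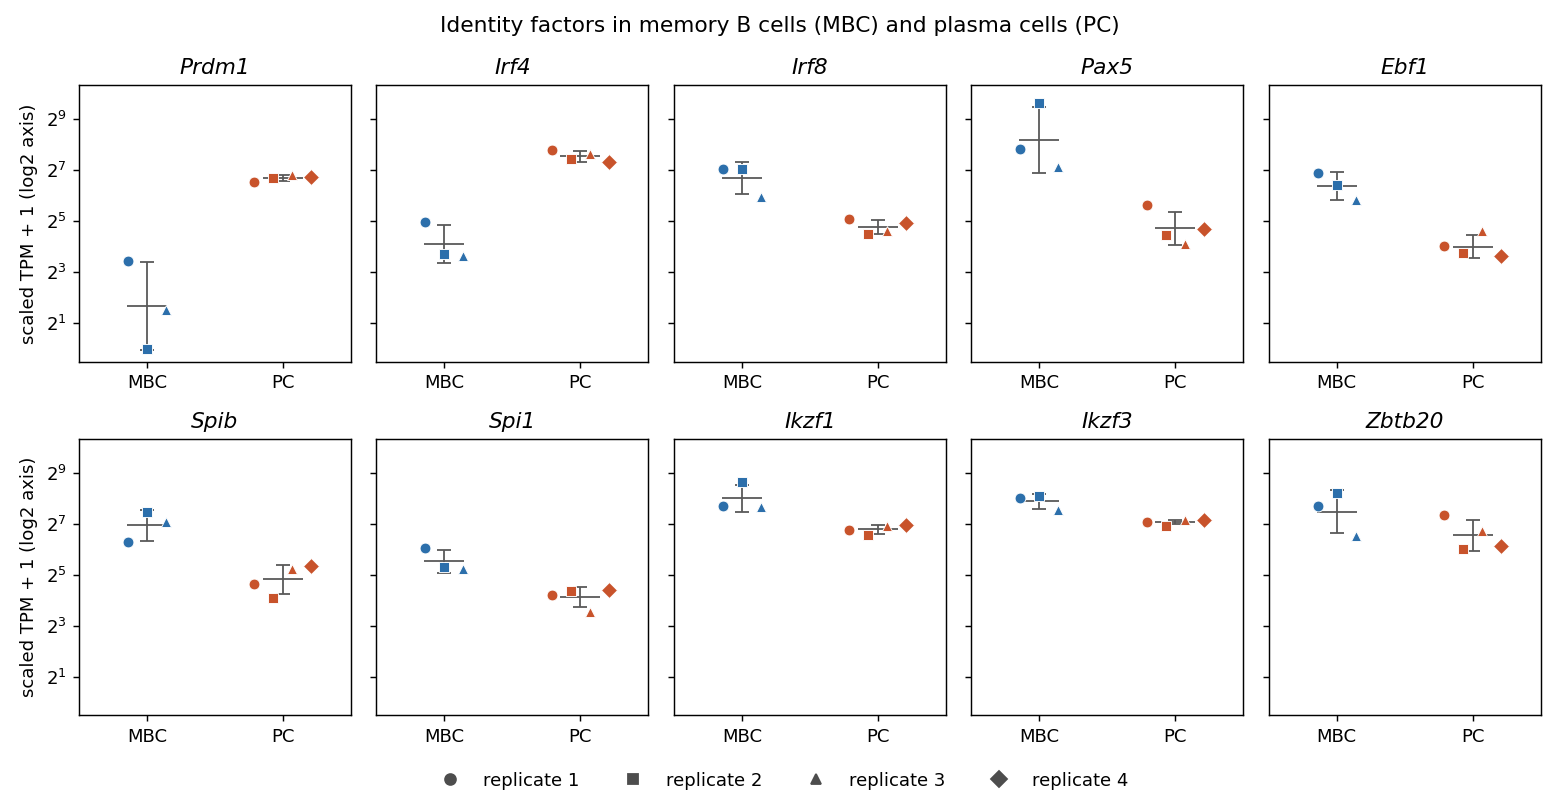
Scaled TPM plus 1 of each of the 10 factors (log2 vertical axis) in the 3 MBC libraries (blue) and the 4 PC libraries (red); marker shapes give the replicate number, the long horizontal line the mean of the log2 values and the whiskers 1 SD. Prdm1 and Irf4 lie higher in every PC library than in any MBC library, 7 others lie lower in every PC library, and Zbtb20 overlaps.

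Prdm1 encodes Blimp-1, the repressor without which antibody-secreting cells do not mature. In scaled TPM, its level in replicates 1 to 3 of MBCs was 9.98, 0 and 1.89, and in replicates 1 to 4 of PCs it was 91.3, 104, 112 and 106. Every PC library lay above every MBC library, and the PC values sat close together while the MBC values did not. The change was 5.04 on the log2 scale (SE 0.69, 95% interval 3.49 to 6.59, limma adjusted p = 0.00172). Without the library labelled MBC replicate 3 it was 4.89 (limma adjusted p = 0.00516), without MBC replicate 1 it was 5.85 and without MBC replicate 2 it was 4.16, both called. Because MBC replicate 2 is listed at 0, where 3 reads over the longest annotated transcript would have given 0.0575 scaled TPM, the size depends on the constant added before the log and ran from 3.75 with 5 added to 6.35 with 0.1 added. The gene (ENSMUSG00000038151) lies at chr10:44437177-44528501 on the minus strand, and its RefSeq start above lies inside that span.

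Irf4 encodes the interferon regulatory factor whose amount sets whether activated B cells go on to secrete antibody. It was at 29.9, 12.0 and 11.4 scaled TPM in the MBC libraries and at 222, 174, 198 and 158 in the PC libraries. The lowest PC library was far above the highest MBC library, MBC replicate 1, which was also the highest MBC library for Prdm1. Irf4 (ENSMUSG00000021356, chr13:30749226-30766976, plus strand) rose 10.96-fold (log2 change 3.45, SE 0.39, 95% interval 2.57 to 4.33, limma adjusted p = 5.36e-04), and by 3.21 on the log2 scale without the library labelled MBC replicate 3 (limma adjusted p = 0.00152). T cells also use Irf4, and among 7 T cell markers Cd3e and Trac rose in PCs (log2 changes 3.17 and 3.25, limma adjusted p = 0.00807 and 0.0191). The 7 markers summed to 15.3 to 40.2 scaled TPM in PCs and to 14.3, 0 and 24.0 in MBC replicates 1 to 3. Cd3e was at 3.86 to 14.2 in PCs and 0 to 0.658 in MBCs. Lck, the other tested marker, made up most of the MBC sums above 0, at 14.3, 0 and 23.0 in MBC replicates 1 to 3. Lck was at 0.629 to 5.03 in PCs and was not called (log2 change -0.85, limma adjusted p = 0.669). The part of these markers in the levels of Irf4, Ikzf1 and Ikzf3 was not tested.

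Irf8 encodes the relative of IRF4 that supports germinal center and follicular B cell genes and opposes PC differentiation. It was at 131, 132 and 60.8 scaled TPM in MBCs and at 32.8, 21.6, 23.2 and 29.5 in PCs. MBC replicates 1 and 2 were nearly equal and the library labelled MBC replicate 3 was the lowest of the 3, still above every PC library. Irf8 (ENSMUSG00000041515, chr8:120736358-120756694, plus strand) fell by 1.91 on the log2 scale (SE 0.38, 95% interval -2.77 to -1.04, limma adjusted p = 0.0145), a 3.75-fold lower level. Without the library labelled MBC replicate 3 it fell by 2.27 (limma adjusted p = 0.00260). The call was lost without PC replicate 2, with a change of -1.81 (limma adjusted p = 0.0555).

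Pax5 encodes the paired box factor that commits cells to the B lineage and is shut off in PCs. Its levels were 224, 789 and 138 scaled TPM in MBCs and 48.3, 21.2, 16.1 and 25.2 in PCs. MBC replicate 2 was 5.74 times the library labelled MBC replicate 3, the widest spread of a factor above 0 in all MBC libraries, and PC replicate 1 was the highest PC library. The groups did not overlap, and Pax5 fell by 3.46 on the log2 scale (SE 0.60, 95% interval -4.80 to -2.12, limma adjusted p = 0.00632), a 10.99-fold lower level and the deepest fall among the 10 factors. Without the library labelled MBC replicate 3 the change was -3.99 (limma adjusted p = 0.00366), and without MBC replicate 2 it was -2.77 (limma adjusted p = 0.00946). Pax5 RNA was still measured in every PC library, and by mean level it stayed above 80.3% of tested genes, against 98.9% in MBCs. The gene (ENSMUSG00000014030, chr4:44524757-44710487, minus strand) shares 125 and 636 exonic bases with the opposite-strand genes Gm12462 and 5730488B01Rik, which reached at most 7.42 and 1.65 TPM as deposited. Whether counting used strand is not given in the sources used here.

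Ebf1 encodes early B cell factor 1, which acts upstream of and beside Pax5. It was at 118, 84.1 and 55.5 scaled TPM in MBCs and at 15.3, 12.4, 23.4 and 11.4 in PCs. Every MBC library lay above every PC library, with the library labelled MBC replicate 3 again lowest and PC replicate 3 the highest of the PCs. Ebf1 (ENSMUSG00000057098, chr11:44617317-45008091, plus strand) fell by 2.37 on the log2 scale (SE 0.41, 95% interval -3.29 to -1.46, limma adjusted p = 0.00605), or 5.17-fold. The change without the library labelled MBC replicate 3 was -2.64 (limma adjusted p = 0.00366).

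Spib encodes Spi-B, an ETS factor of B cells and plasmacytoid dendritic cells that holds back PC genes. Its levels were 76.1, 178 and 134 scaled TPM in MBCs and 23.7, 16.2, 36.7 and 39.2 in PCs. The groups did not overlap, and here MBC replicate 1 was the lowest MBC library, where the other 7 factors with lower means in PCs were lowest in the one labelled replicate 3. Spib (ENSMUSG00000008193, chr7:44525993-44532071, minus strand) fell by 2.12 on the log2 scale (SE 0.44, 95% interval -3.09 to -1.14, limma adjusted p = 0.0158), or 4.34-fold, and by 2.05 without the library labelled MBC replicate 3 (limma adjusted p = 0.0227). Without PC replicate 2 the change was -1.87 and was not called (limma adjusted p = 0.0515).

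Spi1 encodes PU.1, the ETS factor closest to Spi-B in structure, which is also a master factor of myeloid cells. It was at 64.6, 38.6 and 36.8 scaled TPM in MBCs and at 17.7, 19.4, 10.7 and 20.2 in PCs. All MBC libraries lay above all PC libraries, yet the difference of -1.39 on the log2 scale (SE 0.39, 95% interval -2.28 to -0.51) missed the threshold (limma adjusted p = 0.0602). Spi1 (ENSMUSG00000002111, chr2:91082390-91115756, plus strand) was called without the library labelled MBC replicate 3, at -1.53 (limma adjusted p = 0.0310). Spi1 and Irf8 are also used by myeloid and dendritic cells. The 7 monocyte, macrophage and granulocyte markers summed to 8.83, 29.0 and 2.32 scaled TPM in the MBC libraries and 2.15 to 7.68 in PCs, with S100a9 at 0 in all libraries, and 5 dendritic cell markers summed to 5.97 to 10.7 in MBCs and 1.22 to 4.25 in PCs. Their part in the levels of Spi1 and Irf8 was not tested.

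Ikzf1 encodes Ikaros, a zinc finger factor of all lymphocytes that B cells need to respond to antigen. It was at 208, 393 and 203 scaled TPM in MBCs and at 106, 94.0, 119 and 121 in PCs. The groups did not overlap, with the PC libraries close to each other and MBC replicate 2 well above its group. The difference of -1.21 on the log2 scale (SE 0.33, 95% interval -1.96 to -0.47) missed the threshold (limma adjusted p = 0.0544). Ikzf1 (ENSMUSG00000018654, chr11:11685003-11772926, plus strand) was called without the library labelled MBC replicate 3, at -1.38 (limma adjusted p = 0.0225).

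Ikzf3 encodes Aiolos, the Ikaros relative that rises as B cells mature and that long-lived PCs need. Its levels were 258, 272 and 183 scaled TPM in MBCs and 135, 121, 139 and 139.7 in PCs. The groups did not overlap but lay near each other, and Ikzf3 was the steadiest of the 10 factors within each group, with a coefficient of variation of 20.1% in MBCs and 6.497% in PCs. The difference was -0.81 on the log2 scale (SE 0.29, 95% interval -1.45 to -0.16, limma adjusted p = 0.126). Without the library labelled MBC replicate 3, Ikzf3 (ENSMUSG00000018168, chr11:98464902-98546031, minus strand) was at -0.98 (limma adjusted p = 0.0275), under the minimum change for a call.

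Zbtb20 encodes a BTB zinc finger protein that IRF4 induces and that supports lasting antibody production. It was at 205, 292 and 92.1 scaled TPM in MBCs and at 163, 62.9, 103 and 68.9 in PCs. It was the only factor of the 10 whose groups overlapped, because the library labelled MBC replicate 3 lay below PC replicates 1 and 3. The difference of -0.93 on the log2 scale (SE 0.48, 95% interval -2.003 to 0.147) did not pass the test (limma adjusted p = 0.276), nor did the difference of -1.40 without that library (limma adjusted p = 0.0508). The gene (ENSMUSG00000022708, chr16:42875881-43642602, plus strand) shares 104 exonic bases with the opposite-strand gene Gm9968, which reached at most 7.72 TPM as deposited. Zbtb20 stayed among the more abundant transcripts of PCs, above 93.9% of tested genes by mean level.

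**Figure D2:**
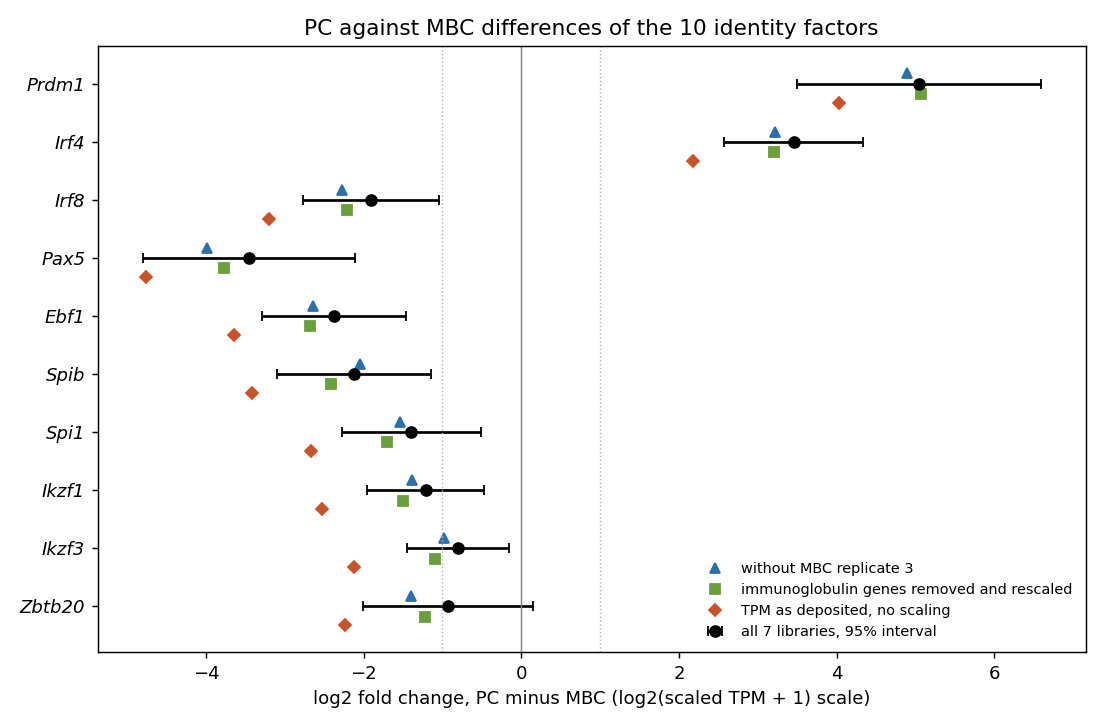
Difference between PCs and MBCs for each of the 10 factors on the log2(scaled TPM + 1) scale; black points with bars give the estimate over 7 libraries and its 95% interval, and the other symbols the estimate without MBC replicate 3, with immunoglobulin genes removed, and on TPM as deposited. All symbols of Prdm1 and Irf4 lie above 1, those of Pax5, Ebf1, Spib, Irf8, Spi1 and Ikzf1 lie below -1, and the Zbtb20 interval of -2.003 to 0.147 holds 0.

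How much the lower factors differed depended on scaling. With all 7 libraries, 74.9% of the 990 called genes rose. On TPM as deposited, 13.5% of called genes rose, the median of all tested genes was -0.91, and 2 factors rose and 8 fell, where 4.08% and 26.1% of all tested genes did. With immunoglobulin genes removed, 47.7% rose, the median was -0.11, and 2 factors rose and 7 fell, where 3.46% and 3.80% of tested genes did. Spi1, Ikzf1 and Ikzf3 were then called, at -1.70, -1.51 and -1.10. Under quantile normalization 59.5% of called genes rose, the median was -0.06, and 2 factors rose and 6 fell, where 5.83% and 3.97% of tested genes did. Relative to the median of all genes, Pax5 was at -3.60 in the scaled values and at -3.85 as deposited, Ikzf3 at -0.95 and at -1.21, and Prdm1 at 4.90 and at 4.93. No factor changed sign under any of these scalings.

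In MBCs the mean levels ran from Pax5 through Ikzf1, Ikzf3, Zbtb20, Spib, Irf8 and Ebf1 to Spi1, and each neighbor in that order overlapped the next. Irf4 lay below Spi1, and Prdm1 below Irf4, without overlap. In PCs Irf4 was the highest, at 188 ± 28.0 scaled TPM (SD, n = 4), and did not overlap Ikzf3, which was next at 134 ± 8.69. Ikzf3, Ikzf1 (109.8 ± 12.6), Prdm1 (103 ± 8.77) and Zbtb20 (99.4 ± 46.0) overlapped their neighbors. Below them and apart from Zbtb20 came Spib at 29.0 ± 10.9, Pax5 at 27.7 ± 14.2 and Irf8 at 26.8 ± 5.25, which overlapped, and then Spi1 at 17.0 ± 4.33 and Ebf1 at 15.6 ± 5.44. Irf4 was thus the ninth by mean level in MBCs and the first in PCs. Pax5 led the MBC means through MBC replicate 2, since Ikzf3 was above it in MBC replicate 1 and Ikzf1 and Ikzf3 in the library labelled MBC replicate 3. Without that library the MBC order differed only in that Irf8, at 132, came before Spib, at 127. Since TPM is per length, these orders compare RNA amounts between genes.

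Ratios between factors of 1 library do not depend on how libraries are scaled, and 4 are given as a description with no test. Irf4 RNA was 0.229, 0.0905 and 0.188 times Irf8 RNA in MBC replicates 1 to 3 and 6.77, 8.03, 8.51 and 5.35 times Irf8 RNA in PC replicates 1 to 4. Irf8 was thus the more abundant of the pair in every MBC library and Irf4 in every PC library, and the lowest PC ratio was 23.4 times the highest MBC ratio. The ratio of Prdm1 to Pax5 was 0.0446, 0 and 0.0137 in MBCs and 1.89, 4.89, 6.95 and 4.22 in PCs. It also passed 1 between the groups, with the lowest PC ratio 42.4 times the highest MBC ratio, and in both ratios the library labelled MBC replicate 3 lay between MBC replicates 1 and 2. The ratios within the other families overlapped between the groups. Spib RNA was 1.179, 4.60 and 3.64 times Spi1 RNA in MBCs and 1.34, 0.832, 3.43 and 1.94 times in PCs. Ikzf3 RNA was 1.24, 0.691 and 0.904 times Ikzf1 RNA in MBCs and 1.28, 1.29, 1.176 and 1.15 times in PCs.

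**Figure D3:**
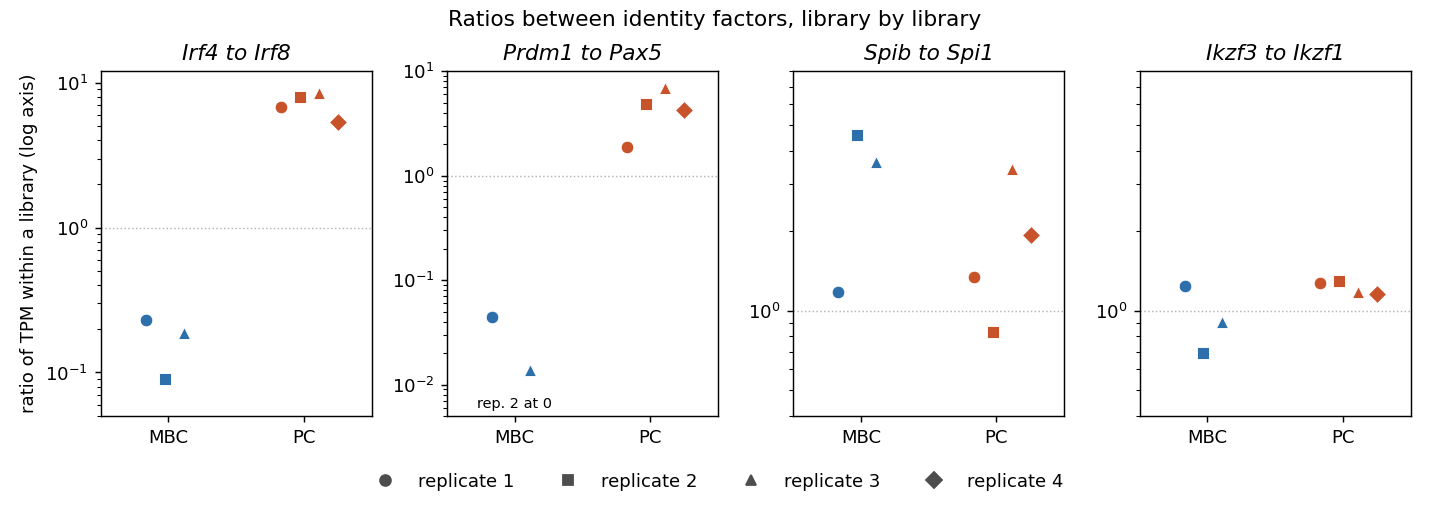
Ratio of the TPM of 1 factor to that of another within each library (log vertical axis, its range set per panel), for MBCs (blue) and PCs (red), with a dotted line at 1 and marker shapes giving the replicate number. Irf4 to Irf8 lies at 0.0905 to 0.229 in MBCs and at 5.35 to 8.51 in PCs, Prdm1 to Pax5 separates likewise with MBC replicate 2 at 0, and the other panels overlap.

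The 10 factors varied more among MBC than among PC libraries. The coefficient of variation was larger in MBCs for 10 of the 10, at 20.1 to 134% against 6.497 to 51.3%. The same held for 79.3% of the 11507 tested genes above 0 in both groups. Of the 3 MBC libraries, the one labelled replicate 3 was the lowest for 8 factors, all but Prdm1 and Spib, and replicate 2 the highest for 6, namely Irf8, Pax5, Spib, Ikzf1, Ikzf3 and Zbtb20. The summed B cell markers Ms4a1, Cd79a and Cd79b were likewise highest in replicate 2 and lowest in the one labelled replicate 3, with sums of 1411, 2129 and 983 across MBC replicates 1 to 3 and of 663 to 860.7 in PCs, in scaled TPM. The erythroid markers were highest in MBC replicate 2, and their part in its factor levels was not tested. The germinal center and cell cycle markers were highest in the library labelled MBC replicate 3, and their part in its factor levels was not tested. Over the 7 libraries, after each factor was centered on its own mean, the closest pair was Ikzf1 and Ikzf3, with a root mean square difference of 0.31 log2 units, followed by Irf8 with Spi1 at 0.46 and Irf8 with Ebf1 also at 0.46. These distances are descriptions over libraries that share their scaling.

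Other members of the same families were examined next. Of 21 relatives, 7 reached the filter, namely Irf1, Irf2, Irf3, Irf5, Irf7, Irf9 and Ikzf5. Of these 7, 0 were called by limma, where 8.55% of all tested genes were called in either direction. With so few genes, 0 is near that share. On TPM as deposited 5 were called lower, where 26.1% of all tested genes fell. In the scaled values 1 had an unadjusted limma p under 0.05. That 1 was Irf5, which directs inflammatory cytokine genes, at 25.9, 12.3 and 20.5 scaled TPM in MBCs and 7.85 to 10.2 in PCs (log2 change -0.97, limma adjusted p = 0.193). The other tested relatives ranged from -0.52 to 0.84, beside 3.45 for Irf4 and -1.91 for Irf8. The paired box genes other than Pax5, Ebf2, Ebf3 and Ebf4, Ikzf2, Ikzf4 and Spic did not reach 1 TPM in 3 libraries. Spic, the third ETS factor of the PU.1 branch, was listed at 7.90, 1.65 and 0 scaled TPM in MBCs and at most 0.431 in PCs. Of the paired box, early B cell factor and PU.1 branches, Pax5, Ebf1, Spi1 and Spib were thus the only genes over the filter.

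A further 12 factors of the B cell and PC network were taken from textbook knowledge, and 11 were tested. Xbp1 and Pou2af1 rose and Bach2, Ets1 and Pou2f2 fell, 5 of the 11, where 6.41% of all tested genes rose and 2.14% fell. Xbp1, which drives the secretory apparatus, was at 58.3, 56.0 and 35.9 scaled TPM in MBCs and at 751, 1041, 756 and 843 in PCs (log2 change 4.07, limma adjusted p = 5.83e-05). Bach2, the repressor that opposes Prdm1, was at 75.8, 95.4 and 85.0 in MBCs and 27.6, 16.8, 19.3 and 15.7 in PCs (log2 change -2.08, limma adjusted p = 0.00484), with 3 MBC libraries closer together than for any lower factor of the set. Bach2 was the highest in the same PC library as Pax5, replicate 1. Pou2af1, the coactivator OBF1, changed by 1.16 (limma adjusted p = 0.0394), a direction that turned to -0.17 on TPM as deposited and to -0.42 under quantile normalization, neither called. Its call was also lost without any 1 library other than MBC replicate 3.

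Ets1 and Pou2f2 (OCT2) fell by 1.73 and 1.65 on the log2 scale (limma adjusted p = 0.0233 and 0.0413), and each lost its call without any 1 PC library, and Pou2f2 also without MBC replicate 1 or 2. Bcl6, the germinal center repressor that Blimp-1 silences, was at 26.7, 15.6 and 105 scaled TPM in MBCs and at 14.6, 9.29, 17.6 and 18.3 in PCs, and was not called (log2 change -1.24, limma adjusted p = 0.252). Its difference was -0.47 without the library labelled MBC replicate 3 and -1.83 without MBC replicate 2, neither called. On TPM as deposited Bcl6 was called lower, at -2.50. Foxo1 was nearly level, at 33.3, 32.9 and 30.3 in MBCs and 28.5 to 34.0 in PCs (log2 change -0.01, limma adjusted p = 0.985), but was called lower on TPM as deposited at -1.30. Mef2c was at -0.84, Id3 at -1.79, Tcf3 at -0.48 and Mef2b at 1.94, none of them called. The Mef2c groups did not overlap, at 300 to 468 scaled TPM in MBCs and 187 to 236 in PCs. Mef2c was called lower with immunoglobulin genes removed at -1.13, under quantile normalization at -1.89 and on TPM as deposited at -2.16. Id3 at -2.90 and Tcf3 at -1.77 were also called lower on TPM as deposited. Without MBC replicate 2, Id3 was called lower, at -2.72 (limma adjusted p = 0.0133), Tcf3 was at 0.17 and Mef2b at 0.74, neither called. Mef2b rose without the library labelled MBC replicate 3 (log2 change 3.50, limma adjusted p = 0.00838), as that library held 52.9 scaled TPM against 1.75 and 0.0944 in the other MBC libraries. Without it, 3 partners rose and 3 fell, where 15.1% and 8.20% of tested genes did.

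**Figure D4:**
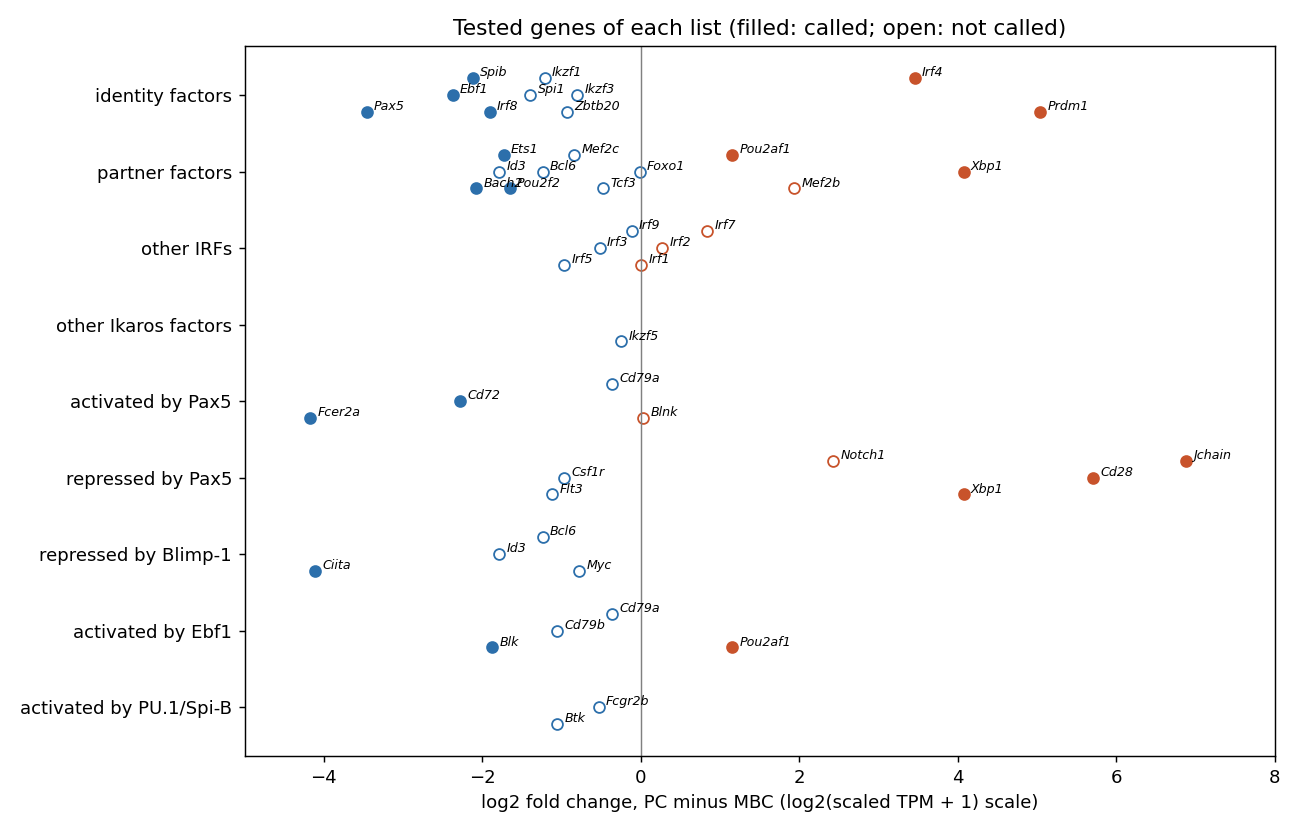
Difference between PCs and MBCs (horizontal axis, log2(scaled TPM + 1) scale) of each tested gene, grouped by the 10 identity factors, partner factors, other members of their families and textbook targets; filled points were called, open points were not, and red and blue mark values above and below 0. Prdm1 at 5.04 and Irf4 at 3.45 stand to the right and Pax5 at -3.46 to the left, while the other IRF genes lie between -0.97 and 0.84.

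Genes that textbooks give as targets of these factors were set beside them. Of 20 such genes 19 were tested, 4 rose and 4 fell, beside the 6.41% and 2.14% of all tested genes. Of 4 genes activated by Pax5, Fcer2a (the low-affinity IgE receptor CD23) and Cd72 fell by 4.17 and 2.28 on the log2 scale (limma adjusted p = 4.81e-04 and 0.0143). The other 2 were not called: Cd79a, a chain of the antigen receptor, was at -0.36 and the adaptor gene Blnk at 0.03. Cd79a was at 638, 1039.7 and 374 scaled TPM in MBCs and 458 to 510.4 in PCs, and was called lower on TPM as deposited at -1.68 and under quantile normalization at -1.84. Blnk was called lower on TPM as deposited at -1.28. Of 6 tested genes repressed by Pax5, Jchain (the joining chain of secreted antibody), Cd28 and Xbp1 rose, Jchain by 6.88 (limma adjusted p = 1.16e-05). Jchain and Xbp1 are also among the PC markers above, and Xbp1 and Pou2af1 are also counted among the partners, so these are not separate results. Cd28, a costimulatory receptor of T cells and PCs, was at 0, 0 and 0.0292 scaled TPM in MBCs and at 41.9 to 55.7 in PCs, so its fitted change depends on the constant added. Notch1, Flt3 and Csf1r were at 2.43, -1.12 and -0.96 and were not called. Flt3 was called lower on TPM as deposited, at -2.12. Csf1r, a receptor of macrophages, was called lower without the library labelled MBC replicate 3, at -1.72 (limma adjusted p = 0.0405), and Notch1 was at 1.65 without PC replicate 3.

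Of 4 genes repressed by Blimp-1, Ciita, which switches on MHC class II transcription, fell by 4.10 on the log2 scale (limma adjusted p = 7.79e-04). It was at 50.1, 94.0 and 29.7 scaled TPM in MBCs and 1.66 to 2.44 in PCs. MBC replicate 2 was thus highest and the library labelled MBC replicate 3 lowest, as for Pax5, Irf8, Ikzf1, Ikzf3 and Zbtb20. Myc, Bcl6 and Id3 ranged from -1.79 to -0.78 and were not called. On TPM as deposited Myc, Bcl6 and Id3 were called lower, at -2.05, -2.50 and -2.90. Of 4 genes activated by Ebf1, the Src-family kinase gene Blk fell (by 1.87, limma adjusted p = 0.0325) and Pou2af1 rose, with Cd79a and Cd79b not called at -0.36 and -1.05. Cd79b was called lower with immunoglobulin genes removed at -1.34, under quantile normalization at -2.20 and on TPM as deposited at -2.37. Blk lost its call without MBC replicate 1 or without any 1 PC library. Of the pair of genes activated by PU.1 and Spi-B, the kinase gene Btk was at -1.05 and the inhibitory Fc receptor gene Fcgr2b at -0.53, neither called. Btk was called lower on TPM as deposited, at -2.33. Without the library labelled MBC replicate 3, 4 targets rose and 5 fell, beside 15.1% and 8.20%.

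The genes whose values followed those of Prdm1 and Pax5 most closely were found by the root mean square difference over the 7 libraries of log2(scaled TPM + 1), each gene centered on its own mean, with immunoglobulin genes and the 10 factors left out. The 5 nearest to Prdm1 were Derl3, which acts in the degradation of misfolded proteins of the endoplasmic reticulum, at a difference of 0.44 log2 units, Tmem176b at 0.50, Sec24d, a coat protein of vesicles that leave the endoplasmic reticulum, at 0.60, Glipr1 at 0.62 and Trib1 at 0.66. Derl3 was at 19.8, 0.607 and 9.93 scaled TPM in MBCs and 324 to 334 in PCs, so it shared with Prdm1 the highest MBC value in replicate 1 and the lowest in replicate 2. The 5 nearest to Pax5 were Lmo2, a LIM domain factor of germinal center B cells, at 0.32, Rnf157 at 0.33, the unnamed transcripts 4930538E20Rik at 0.38 and F830112A20Rik at 0.47, and Tlr9, a receptor for unmethylated DNA, at 0.47. Lmo2 was at 42.5, 162 and 34.6 scaled TPM in MBCs and 2.51 to 5.84 in PCs. Its order of MBC libraries was that of Pax5, which Irf8, Ikzf1, Ikzf3 and Zbtb20 also had. These likenesses rest on 7 libraries and mostly on the difference between the groups. Derl3 and Lmo2 were chosen for closeness over these same libraries, so their shared order of MBC libraries follows in part from that choice.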

How the data were processed

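The deposited table gives TPM as the authors made it, 1 value per gene and library for 48795 Ensembl genes, rounded to 2 decimals. The submitters' processing notes name STAR 2.5.2a, RSEM 1.3.0, DESeq2 1.18.1 and the GRCm38 build, and whether counting used strand is not given in the sources used here. TPM holds no read totals, so the reads behind 1 TPM were estimated from the steps of low values (77.6 to 84.3% lay within 0.15 of a whole read, 30% would by coincidence), a step chosen after the data were seen that covers counting error only. Symbols and coordinates came from GENCODE M21 (48349 IDs matched). Groups and replicate numbers came from the sample descriptions, and no 2 libraries were copies.

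TPM was scaled as described, and limma 3.58.1 was run (lmFit, eBayes with trend, R 4.3.3) on log2(scaled TPM + 1) of genes at 1 TPM in 3 libraries, with all 7 libraries and no covariate. Python 3.11.15, pandas 2.3.3 and numpy 2.4.6 did the rest. The limma procedure and the depth estimate were tested on simulated data. All 10 factors are named, partners, relatives and targets where called, where they share a family with a factor or where a short count needs them, and 5 nearest genes for Prdm1 and Pax5. The factors and lists were chosen with earlier results of these data known. Some genes of the marker, family and target lists are not reported here. Alternatives covered scaling, the constant added, the filter, array weights, each library left out, and replicate or title code blocks. The constants tried were 0.1 and 5.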

Additional observations from a re-analysis of the deposited data

Results flagged for a closer look

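Within the 4 PC libraries, 47 values of factors, partners, relatives, targets and ratios were examined for a library whose gap to its nearest neighbor, over the whole range, passed Dixon's critical value for 4 samples. Chance alone gives about 1 in 20 such cases, 2.35 here, and 5 were found, none among the 10 factors. Ets1 was low in PC replicate 1, at 22.01 scaled TPM, against 32.2 to 32.8 in the other PCs. Mef2c was high in PC replicate 3, at 236 against 187 to 190.3. Irf7 was high in the same library, at 12.5 against 4.13 to 4.53. Notch1 was high there as well, at 41.0 against 2.39 to 5.41. Cd28 was low in PC replicate 4, at 41.9 against 55.2 to 55.7. With 3 libraries, MBCs were not examined in this way.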

How the results depend on the processing

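Over 18 alternatives each, the 10 factors kept their sign in all 180 fits, and Prdm1, Irf4 and Pax5 kept their calls in 18 of 18. Of the 180, 159 kept their side of the threshold, 7 lost a call (Spib with array weights at -2.24, Irf8 with the title code as a block at -1.82, and those named here for blocks and PC replicate 2) and 14 gained one, among Spi1, Ikzf1, Ikzf3 and Zbtb20. Factors higher in PCs numbered 2 in every setting, where 2.05 to 15.1% of all tested genes rose. Factors lower in PCs numbered 4 with all libraries, where 2.14% of all tested genes fell. They numbered 8 on TPM as deposited and 7 with immunoglobulin genes removed, where 26.1% and 3.80% fell. With immunoglobulin and mitochondrial genes removed, a setting chosen after seeing the data, they numbered 7, where 4.92% fell. In that setting 38.7% of calls rose and the median of all genes was -0.29. A call with no minimum change was also chosen after seeing the data and altered no count. With 1 library left out they numbered 2 to 6, where 0.823 to 8.20% of all tested genes fell. The count of 2 was without PC replicate 2, where 0.823% fell, Irf8 was at -1.81 and Spib at -1.87.

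Partners called, 5 with all libraries, numbered 9 on TPM as deposited, 2 with all genes above 0 tested, 3 with array weights, 2 with the title code as a block and 2 to 6 with 1 library left out (3 without MBC replicate 1 and 2 without any 1 PC library). Relatives numbered 0 in each setting but TPM as deposited, with 5, and targets, 8 with all libraries, 15 on TPM as deposited and 6 to 9 with 1 library left out. Of all tested genes, 6.41% rose and 2.14% fell with all libraries, and 4.08% and 26.1% on TPM as deposited. The shares were 2.05% and 0.577% with all genes above 0 tested, and 5.28% and 1.56% with array weights. With the title code as a block they were 3.75% and 0.717%. With 1 library left out, 4.03 to 15.1% rose and 0.823 to 8.20% fell. Of 11 called partners and targets, Pou2af1 reversed, to -0.17 on TPM as deposited and -0.42 under quantile normalization. Beyond what the settings' own construction shows, the causes were not tested.

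Replicate numbers did not pair the libraries. Deviations from the group means correlated at 0.11, -0.04 and -0.08 between the same-numbered libraries. With the replicate number as a block, 2 factors rose and 1 fell, Pax5, where 3.37% and 0.518% of all tested genes did, while Irf8, Ebf1 and Spib were at -1.96, -2.25 and -2.29 without a call, 1 partner was called (Xbp1), and 5 targets were called against 8. The titles also carry codes, whose meaning the labels do not give. MBC replicates 1, 2 and 3 share their full code with PC replicates 1, 3 and 4, and these pairs correlated at 0.11, -0.004 and 0.22. The other pairs of an MBC and a PC library ran from -0.18 to 0.15. With the code as a block, 2 factors rose and Pax5, Ebf1 and Spib fell, where 3.75% and 0.717% of all tested genes did. Irf8, Ets1, Pou2f2, Pou2af1 and Blk then lost their calls. MBC replicate 3 and PC replicate 4 have 1 code prefix, with 1 library a group, and within the other prefix 2 factors rose and 4 fell, where 9.89% and 4.37% of tested genes did. With 3 and 4 libraries and an unknown number of mice, a difference as large as that of Spi1, -1.39, missed the threshold.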
